A study of Mus musculus with 9 samples.

Results

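The genes of 10 enzymes and cofactors that write, copy or remove DNA methylation and Polycomb marks (Dnmt1, Uhrf1, Dnmt3a, Dnmt3b, Tet1, Tet2, Tet3, Ezh2, Ezh1 and Eed) were followed through mouse splenic T cells before and after hematopoietic stem cell transplantation. The rows were found by matching each symbol to its Ensembl identifier, which returned all 10 members among the 29229 genes of the count table. Total RNA was sequenced from live CD3+ CD45.2+ cells in 9 libraries, 3 per group. The naive group held T cells of healthy, non-transplanted C57BL/6 mice. The syngeneic group held donor T cells recovered on day 7 from irradiated B6.SJL-Ptprca Pepcb/BoyJ recipients (H-2b, CD45.1), which had 9.5 Gy and 8500000 C57BL/6 splenic T cells. The allogeneic group held donor T cells recovered on day 7 from CByJ.SJL(B6)-Ptprca/J recipients (H-2d, CD45.1), which had 8 Gy, split into equal doses, and 1000000 C57BL/6 splenic T cells. Both recipient groups also received 5000000 C57BL/6 marrow cells freed of T cells, and cells that grow from this marrow carry CD45.2 too. All donors and recipients were females of 8 to 12 weeks, and each transplant library pooled 2 to 4 recipients. The transplant groups therefore differed in antigen, radiation dose and cell dose together, which cannot be told apart. The strain tag is the same for every library and conflicts with the protocols, and was not used.

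DNA methylation at CG dinucleotides is copied at each cell division by Dnmt1, which is brought to newly replicated, half-methylated DNA by Uhrf1. Dnmt3a and Dnmt3b add methyl groups to unmethylated DNA, and the Tet enzymes oxidise methylcytosine, the first step of its removal. Polycomb repressive complex 2 (PRC2) methylates lysine 27 of histone H3 through Ezh2 or its paralog Ezh1, with Eed as the subunit that binds the finished mark. In T cells Dnmt3a and Ezh2 are known for restraining or fixing effector and memory programs after antigen stimulation.

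Total counts per library ran from 103953932 to 176678189, and the lowest count of any member in any library was 330, for Tet1. Levels are given as CPM, the count of a gene scaled to a library total of 1000000. The sorted libraries carried the genes that define T cells: Cd3e, a chain of the T-cell receptor complex, stood at 681 to 717 CPM in naive, 406 to 497 in syngeneic and 624 to 705 in allogeneic libraries. Calls are by edgeR's quasi-likelihood test at an adjusted p under 0.05. Of 14 T-cell genes, 1 was called higher and 11 lower in syngeneic against naive libraries. In allogeneic against naive libraries 0 and 2 were called, and in allogeneic against syngeneic libraries 7 and 1. Of all genes tested, 22.4% and 19.5%, 31.8% and 25.9%, and 24.3% and 20.7% were called higher and lower in these comparisons. The marker counts that follow stand beside these shares as descriptions. Cd4 was at 434 to 469 CPM in naive, 171 to 223 in syngeneic and 410.1 to 446 in allogeneic libraries, and Cd8a at 404 to 453, 520.4 to 657 and 319 to 431 CPM. The Cd4 levels of the syngeneic libraries were thus below, and their Cd8a levels above, those of both other groups. Genes of other cells were present too. The summed CPM of 13 measured erythroid genes was 8.00 to 9.38 in naive, 2289 to 5973 in syngeneic and 26.3 to 89.1 in allogeneic libraries. The sum of 10 neutrophil genes was 1.73 to 5.42, 421 to 1421 and 627 to 1129 CPM in the same order, that of 14 macrophage and monocyte genes 17.1 to 22.3, 117 to 318 and 227 to 298, that of 12 B-cell genes 468 to 495, 537 to 963 and 969 to 1506, and that of 8 NK-cell genes 142 to 151, 262 to 309 and 557 to 639. The sums cover genes that moved apart. In allogeneic against syngeneic libraries 3 macrophage and monocyte genes were called higher and 9 lower (median log2 fold change -2.05), among them Csf1r, the receptor for macrophage growth factor, whose mean was 13.7 ± 8.61 CPM in the syngeneic group and 1.71 ± 0.37 CPM in the other. In the same comparison 4 NK-cell genes were called higher and 4 lower, 1 B-cell gene higher and 6 lower of 11 tested, and all 13 erythroid genes lower. No neutrophil gene was called there by edgeR, DESeq2 or limma-voom, and 0 had an unadjusted p under 0.05 by edgeR. The part of the cell make-up in the results below was not tested. The macrophage gene Fcgr1 had no count in naive and the NK-cell gene Klra8 none in allogeneic libraries, and every other marker measured had a count in each group. In mixed RNA of this kind, fewer cells of a type and less RNA per cell cannot be told apart. The 2 annotated RNAs of a ribosomal RNA locus (Gm26917 and Gm42418) took 7.87 to 22.4% of counts. Allogeneic library 1 stood apart from the others of its group, with 172439 CPM from this locus against 90579 and 78657 CPM.

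Both transplant groups differed from naive T cells across most of the 10 genes, and the 3 genes called between them were those of the Tet family. By edgeR's quasi-likelihood test, at a Benjamini-Hochberg adjusted p under 0.05 over all 19609 genes tested, 8 members were called in syngeneic against naive libraries, where 41.9% of all genes were called. Of these, 5 were higher (22.4% of all genes) and 3 lower (19.5%). In allogeneic against naive libraries 9 were called (57.7% of all genes), 5 higher (31.8%) and 4 lower (25.9%). In allogeneic against syngeneic libraries 3 were called (45.0% of all genes), of which Tet2 was higher (24.3% of all genes) and Tet1 and Tet3 were lower (20.7%). By level, the CPM of 9, 9 and 3 members did not overlap between the groups of these comparisons, as was the case for 56.5%, 65.1% and 52.7% of all genes tested. The median log2 fold change of the members was 0.11, 0.34 and -0.01 in these comparisons, against 0.01, -0.01 and -0.02 over all genes tested. The 2 comparisons with naive cells share the naive libraries.

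**Figure D1:**
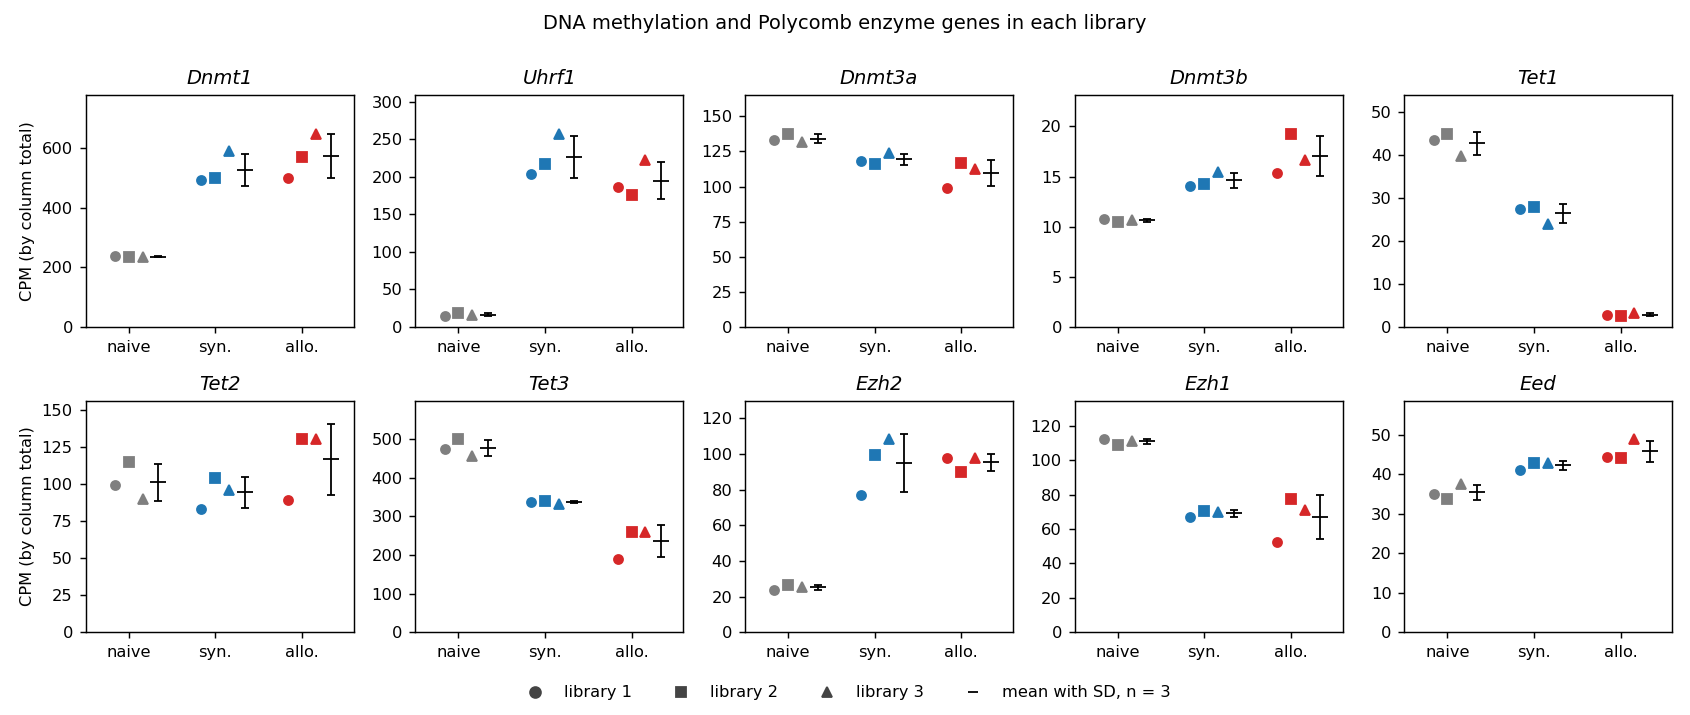
CPM of each gene in each of the 9 libraries (y axis from 0, CPM by column total; markers are libraries 1 to 3 of a group, black bars the mean with SD, n = 3). Uhrf1, Dnmt1 and Ezh2 are higher in all 6 transplant libraries than in any naive library, and Tet1 is at 2.63 to 3.17 CPM in the allogeneic libraries.

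**Figure D2:**
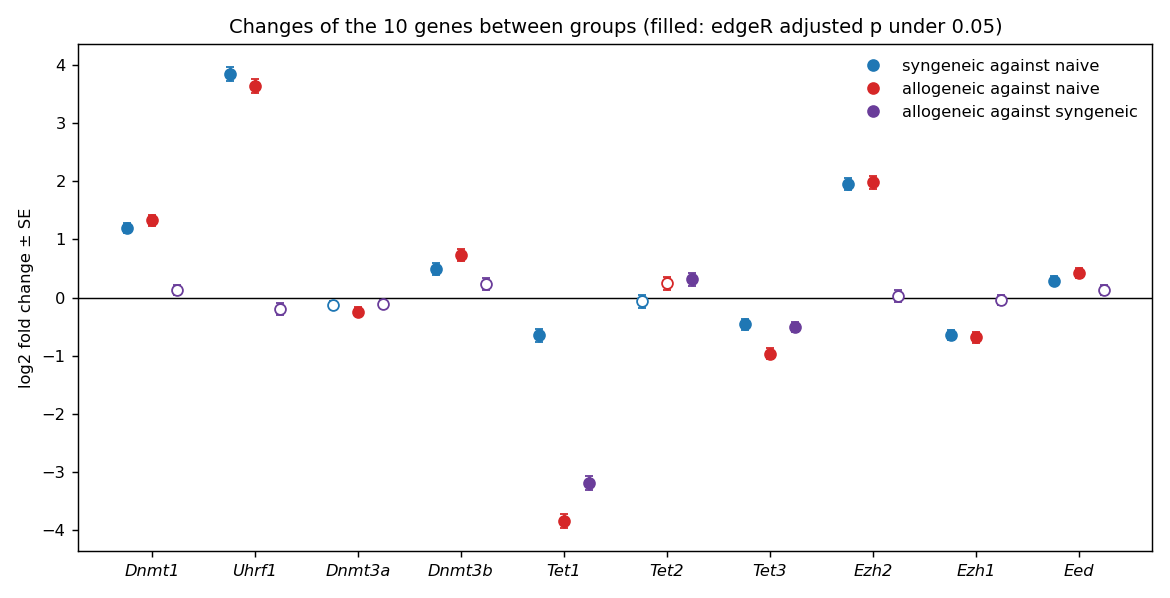
Log2 fold change with SE of each gene in 3 comparisons (filled points passed edgeR's quasi-likelihood test at an adjusted p under 0.05, open points did not). Uhrf1 has the highest values against naive cells and Tet1 in allogeneic cells the lowest.

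The genes of maintenance methylation rose in both transplant groups, Uhrf1 by the highest factor of the 10 members. Uhrf1 (ENSMUSG00000001228, GRCm38 chromosome 17, 56303321 to 56323486, plus strand), which reads half-methylated DNA and recruits Dnmt1, was at 14.5, 18.2 and 15.9 CPM in naive libraries 1 to 3. It reached 204, 218 and 257 CPM in syngeneic and 186, 176 and 222 CPM in allogeneic libraries. The naive libraries lay far below all others, while the 2 transplant groups overlapped. The increase was 14.4-fold in syngeneic (log2 fold change 3.84 ± 0.12 SE, edgeR adjusted p = 1.64e-08) and 12.5-fold in allogeneic cells (3.64 ± 0.12, edgeR adjusted p = 2.02e-09).

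Dnmt1 (ENSMUSG00000004099, chromosome 9, 20907209 to 20959888, minus strand), the maintenance methyltransferase itself, stood in naive cells at 239, 234 and 234 CPM. It was at 494, 499 and 589.8 CPM in syngeneic and 500.5, 570.8 and 648 CPM in allogeneic libraries. All transplant libraries were above all naive ones and overlapped each other. Dnmt1 rose 2.29-fold in syngeneic (1.20 ± 0.09, edgeR adjusted p = 1.95e-06) and 2.51-fold in allogeneic cells (1.33 ± 0.09, edgeR adjusted p = 3.21e-07). Between the transplant groups neither gene passed the test: the log2 difference, allogeneic against syngeneic, was 0.13 ± 0.09 for Dnmt1 (edgeR adjusted p = 0.264) and -0.20 ± 0.11 for Uhrf1 (edgeR adjusted p = 0.152).

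Of the de novo methyltransferases, the one with the higher level per kilobase moved little and the other rose. Dnmt3a (ENSMUSG00000020661, chromosome 12, 3806007 to 3914443, plus strand) was at 133, 137 and 131 CPM in naive, 118, 116 and 124 CPM in syngeneic and 99.0, 117 and 113 CPM in allogeneic libraries. Both transplant groups lay below the naive range. The decrease passed the test in allogeneic cells (-0.24 ± 0.07, edgeR adjusted p = 0.0125) and did not in syngeneic cells (-0.13 ± 0.07, edgeR adjusted p = 0.178), and the difference between them was -0.11 ± 0.07 (edgeR adjusted p = 0.209).

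Dnmt3b (ENSMUSG00000027478, chromosome 2, 153649450 to 153687730, plus strand) was at 10.8, 10.5 and 10.7 CPM in naive, 14.1, 14.3 and 15.5 CPM in syngeneic and 15.3, 19.3 and 16.7 CPM in allogeneic libraries. Every transplant library exceeded every naive one. The gene rose 1.41-fold in syngeneic (0.49 ± 0.10, edgeR adjusted p = 0.00263) and 1.66-fold in allogeneic cells (0.73 ± 0.10, edgeR adjusted p = 9.97e-05). The difference between the transplant groups, 0.24 ± 0.10, did not pass (edgeR adjusted p = 0.0785).

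Tet1 and Tet3 separated the transplant groups. Tet1 (ENSMUSG00000047146, chromosome 10, 62804570 to 62908996, minus strand) was at 43.5, 44.8 and 39.6 CPM in naive and 27.4, 28.0 and 23.8 CPM in syngeneic libraries, but at 2.82, 2.63 and 3.17 CPM in allogeneic libraries. None of the 3 groups overlapped another. Tet1 fell 1.57-fold in syngeneic (-0.65 ± 0.11, edgeR adjusted p = 0.000592) and 14.3-fold in allogeneic cells (-3.84 ± 0.12, edgeR adjusted p = 1.64e-09). The allogeneic libraries were 9.11-fold below the syngeneic ones (-3.19 ± 0.12, edgeR adjusted p = 1.58e-08), and leaving out any 1 library kept this between -3.27 and -3.09. Erythroid genes, Cd4 and Cd8a also differed between these groups, and their part in the Tet1 values was not tested.

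Tet3 (ENSMUSG00000034832, chromosome 6, 83362373 to 83459084, minus strand), the Tet gene with the highest level per kilobase, was at 474, 499.8 and 457 CPM in naive, 338, 339.5 and 333 CPM in syngeneic and 189, 260.5 and 259 CPM in allogeneic libraries. The groups stood in the same order as for Tet1, again without overlap, with allogeneic library 1 lowest. Tet3 fell 1.38-fold in syngeneic (-0.46 ± 0.09, edgeR adjusted p = 0.0021) and 1.96-fold in allogeneic cells (-0.97 ± 0.09, edgeR adjusted p = 5.07e-06). The difference between the transplant groups was -0.51 ± 0.09 (edgeR adjusted p = 0.00116), and it was -0.41 without allogeneic library 1. That library, with the highest share of the ribosomal RNA locus in its group, was also lowest of its group in Dnmt1, Dnmt3a, Dnmt3b, Tet2 and Ezh1, and the part of the locus in these values was not tested.

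Tet2 (ENSMUSG00000040943, chromosome 3, 133463679 to 133545139, minus strand), the family member most often mutated in blood cancers, was at 99.0, 115 and 89.9 CPM in naive, 83.0, 104 and 96.2 CPM in syngeneic and 89.3, 130.2 and 130.3 CPM in allogeneic libraries. All 3 groups overlapped. Against naive cells it was not called in syngeneic (-0.06 ± 0.11, edgeR adjusted p = 0.69) or allogeneic cells (0.25 ± 0.11, edgeR adjusted p = 0.0771), and the latter passed without allogeneic library 1 (edgeR adjusted p = 0.00762) or naive library 2 (0.0481). Its call between the transplant groups (0.31 ± 0.11, edgeR adjusted p = 0.0403) was near the threshold. It was lost without allogeneic library 2 (edgeR adjusted p = 0.12) or 3 (0.193), without naive library 1 (0.0556) and without syngeneic library 1 (0.0913), 2 (0.0555) or 3 (0.0948), and also with library sizes taken as column totals (0.127), with 2 groups in the fit (0.0635) and with the ribosomal RNA locus left out (0.0506).

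Among the PRC2 subunits the catalytic paralogs moved in opposite directions. Ezh2 (ENSMUSG00000029687, chromosome 6, 47530139 to 47595341, minus strand), the form known from dividing cells, was at 23.7, 26.5 and 25.1 CPM in naive, 77.1, 99.7 and 108 CPM in syngeneic and 98.0, 89.8 and 98.0 CPM in allogeneic libraries. Each transplant library was at least at 77.1 CPM, above the naive maximum of 26.5. Ezh2 rose 3.87-fold in syngeneic (1.95 ± 0.11, edgeR adjusted p = 1.51e-07) and 3.95-fold in allogeneic cells (1.98 ± 0.11, edgeR adjusted p = 4.73e-08), with a difference between them of 0.03 ± 0.11 (edgeR adjusted p = 0.84).

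Ezh1 (ENSMUSG00000006920, chromosome 11, 101191115 to 101226463, minus strand), the form known from resting cells, was at 112, 109 and 111 CPM in naive, 67.0, 70.5 and 70.1 CPM in syngeneic and 52.6, 77.2 and 70.9 CPM in allogeneic libraries. All transplant libraries were below the naive range, and the syngeneic values lay inside the allogeneic range. Ezh1 fell 1.56-fold in syngeneic (-0.65 ± 0.09, edgeR adjusted p = 0.000235) and 1.61-fold in allogeneic cells (-0.69 ± 0.09, edgeR adjusted p = 7.99e-05). The difference between the transplant groups was -0.04 ± 0.09 (edgeR adjusted p = 0.733).

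Eed (ENSMUSG00000030619, chromosome 7, 89954654 to 89980983, minus strand) was at 34.9, 33.7 and 37.4 CPM in naive, 41.0, 42.8 and 42.7 CPM in syngeneic and 44.3, 44.1 and 48.8 CPM in allogeneic libraries. The 3 groups did not overlap, but the steps were small. Eed was higher than in naive cells in syngeneic (0.29 ± 0.08, edgeR adjusted p = 0.0163) and allogeneic cells (0.42 ± 0.08, edgeR adjusted p = 0.00118), and the difference between them did not pass (0.13 ± 0.08, edgeR adjusted p = 0.218). The syngeneic call was lost without naive library 1 (edgeR adjusted p = 0.0668) or 2 (0.074). An annotated transcript on the opposite strand, E230029C05Rik, overlaps Eed and held counts equal to 0.61 to 1.34% of those of Eed. Such overlaps were at most 0.384% for the other members.

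Genes of DNA replication and mitosis rose in the same libraries as Uhrf1, Dnmt1 and Ezh2. The summed CPM of 20 replication genes was 720.4 to 757 in naive, 2548 to 3214 in syngeneic and 2438 to 2978 in allogeneic libraries, and all 20 were called higher in both comparisons with naive cells. All 16 mitosis genes were called higher as well, with sums of 119.6 to 156, 2411 to 3937 and 3172 to 3528 CPM. Mki67, a marker of cycling cells, was at 1000.2 CPM in syngeneic library 1 and 1867 and 1859 CPM in the others. Uhrf1, Dnmt1 and Ezh2 were also lowest in library 1 of that group, as were the erythroid, neutrophil, macrophage and monocyte, and B-cell sums. In allogeneic libraries Mki67 was at 1203, 1317 and 1395 CPM, where Dnmt1 was lowest in library 1 but Uhrf1 and Ezh2 in library 2. In naive libraries Mki67 was at 37.0, 55.3 and 42.9 CPM, where Uhrf1 and Ezh2 were lowest and Dnmt1 highest in library 1. The part of the replication and mitosis genes, and of the genes of these other cells, in the changes of the members was not tested.

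The upstream sequences of the members were searched for letters that are typical of cell-cycle promoters, since Uhrf1, Dnmt1 and Ezh2 moved together. All 10 members matched the promoter table of RefSeq (GRCm38.p6), with 15 start sites and 300 bases each, from 250 before to 50 after the start. The E2F motif was searched on either strand in 4 spellings. The first spelling was TTCCCGC. Another, which differs in the middle, was TTGGCGC. A further one was TTCGCGC, and the last was TTGCCGC. The motif occurred at 4 of the 15 start sites, which belonged to 3 members: Uhrf1, Dnmt1 and Ezh2. Dnmt3b and Eed, which also rose in both transplant groups and correlated with Dnmt1 at 0.94 each, held none. Of all 32851 promoters listed, 9.57% held it. Every spelling contains CG, and the 4 start sites held 12 to 33 CG dinucleotides against a median of 7 over the table. The 9.57% is therefore not a share among promoters of like CG content. None of these matches overlapped another searched motif. The 6 matches are shown in 30 bases each, 5′ to 3′ on the strand of the gene, with the match in capitals and its first base counted from the start site as 0.

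Uhrf1 start 1, first base -48, chr17:56303278-56303307: tgctttctcgcTTCCCGCcacagcgccagc
Uhrf1 start 2, first base -184, chr17:56304118-56304147: ccgagtcgggtTTCGCGCgcccaggcgtct
Dnmt1 start 3, first base -219, chr9:20952824-20952853: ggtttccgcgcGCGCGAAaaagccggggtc
Dnmt1 start 3, first base -158, chr9:20952763-20952792: gcaagatgccaGCGCGAAcagctccagccc
Dnmt1 start 3, first base 34, chr9:20952574-20952603: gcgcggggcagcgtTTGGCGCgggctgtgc
Ezh2 start 1, first base 4, chr6:47595008-47595037: ggttgctgcgtTTGGCGCtcggtccggtcg

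The 250 bases before the start of Uhrf1 (start 2) and of Tet1, the members with the highest rise and the deepest fall, are given for comparison, with E2F matches in capitals. Uhrf1 start 2 held 33 CG dinucleotides in its 300 bases and Tet1 held 17, against a median of 7 and an upper quartile of 20 over the table. CG dinucleotides carry the methylation that the Dnmt enzymes write and the Tet enzymes oxidise.

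Uhrf1 start 2, chr17:56304063-56304312, plus strand: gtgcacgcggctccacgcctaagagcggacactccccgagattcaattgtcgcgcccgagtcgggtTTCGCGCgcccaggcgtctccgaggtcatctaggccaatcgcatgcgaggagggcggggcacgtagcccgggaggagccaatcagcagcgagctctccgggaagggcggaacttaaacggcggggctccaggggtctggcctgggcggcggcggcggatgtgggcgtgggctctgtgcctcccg
Tet1 start 1, chr10:62887325-62887574, minus strand: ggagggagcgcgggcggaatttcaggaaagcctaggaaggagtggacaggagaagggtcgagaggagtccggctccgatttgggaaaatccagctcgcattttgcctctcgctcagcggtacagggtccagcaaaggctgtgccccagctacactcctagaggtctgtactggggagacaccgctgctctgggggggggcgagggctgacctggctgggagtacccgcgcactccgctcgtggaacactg

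The other motifs were spread over the members. CCAAT, on either strand, was found at 7 of the 15 start sites (37.4% of all promoters), including 2 matches at Uhrf1 start 2 and 3 at Ezh2. GGGCGG was found at 10 (35.7% of all promoters) and TTTGAA, the letters of the cell-cycle homology region, at 3 (17.9%), in Dnmt1 start 1, Dnmt3b and Eed. These are descriptions of letters in a window, without a measurement of any factor's binding.

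Levels of different genes were compared per kilobase of annotated exon (CPM per kb). In naive cells Dnmt1 (32.0 ± 0.37 CPM per kb, SD, n = 3) was highest, followed by Tet3 (28.6 ± 1.28) and Ezh1 (14.9 ± 0.22), and Dnmt3b was lowest (2.09 ± 0.03). Neighbours in this order did not overlap, except Uhrf1 (3.80 ± 0.44) and Ezh2 (3.76 ± 0.21). In syngeneic cells the order was Dnmt1 (71.5 ± 7.30 CPM per kb), Uhrf1 (53.2 ± 6.46), Tet3 (20.2 ± 0.22), Ezh2 (14.2 ± 2.41), Eed (11.02 ± 0.27), Ezh1 (9.30 ± 0.26), Dnmt3a (7.18 ± 0.24), Tet2 (5.60 ± 0.63), Dnmt3b (2.86 ± 0.15) and Tet1 (1.71 ± 0.14), with no overlap between neighbours. In allogeneic cells Dnmt1 (77.7 ± 9.97 CPM per kb) and Uhrf1 (45.8 ± 5.73) again led. Ezh2 (14.3 ± 0.71), Tet3 (14.2 ± 2.44) and Eed (12.0 ± 0.70) overlapped in sequence, as did Ezh1 (8.99 ± 1.72), Tet2 (6.91 ± 1.40) and Dnmt3a (6.58 ± 0.56). Dnmt3b (3.35 ± 0.39) and Tet1 (0.186 ± 0.018) were lowest.

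The make-up of each family is described by the share of each paralog, which was not tested. Ezh2 supplied 20.1 ± 1.12% of the summed CPM per kb of Ezh1 and Ezh2 in naive cells, 60.2 ± 3.63% in syngeneic and 61.5 ± 5.57% in allogeneic cells (SD, n = 3). The sum of the pair was 18.7 ± 0.06, 23.5 ± 2.66 and 23.3 ± 1.32 CPM per kb. Tet1 supplied 7.39 ± 0.17% of Tet transcripts in naive, 6.21 ± 0.47% in syngeneic and 0.896 ± 0.182% in allogeneic cells, while Tet2 supplied 16.0 ± 1.04%, 20.3 ± 1.85% and 32.4 ± 0.82%. The sum of the Tet genes was 37.3 ± 2.18, 27.5 ± 0.74 and 21.3 ± 3.85 CPM per kb. Dnmt1 supplied 75.9 ± 0.39% of Dnmt transcripts in naive, 87.7 ± 0.67% in syngeneic and 88.6 ± 1.01% in allogeneic cells, and Dnmt3a 19.1 ± 0.44%, 8.83 ± 0.53% and 7.54 ± 0.55%.

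**Figure D3:**
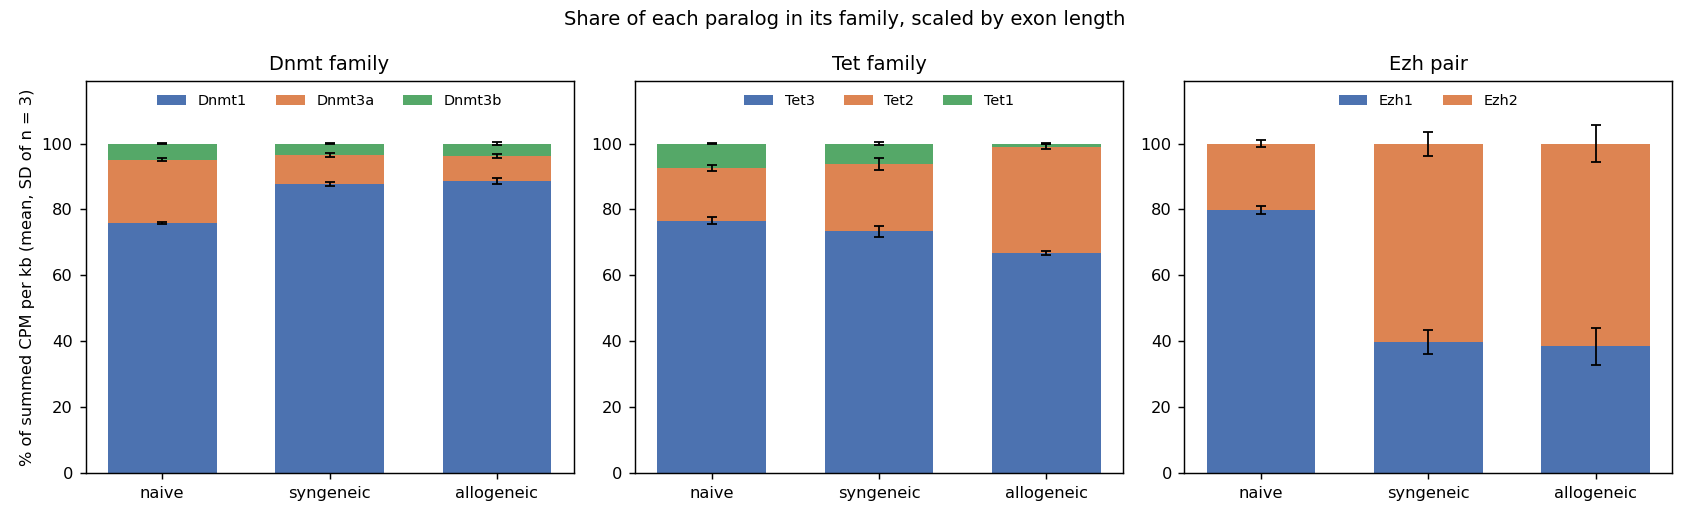
Share of each paralog in the summed CPM per kb of its family (bars are means of 3 libraries per group and error bars their SD). Ezh2 goes from 20.1% in naive to 60.2% and 61.5% in transplant cells, and Tet1 shrinks to 0.896% in allogeneic cells.

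Ratios of 2 genes in a library do not depend on how libraries are scaled. The count ratio of Ezh2 to Ezh1 was 0.211, 0.242 and 0.225 in naive libraries, 1.15, 1.41 and 1.55 in syngeneic and 1.86, 1.16 and 1.38 in allogeneic libraries. The difference from naive cells was 2.59 (syngeneic) and 2.67 (allogeneic) on the log2 scale, without overlap. An exact 2-sided permutation test gave p = 0.1 for each, the smallest value that 3 against 3 libraries allow, or 0.15 adjusted over the 18 ratio tests. The Dnmt1 to Dnmt3a ratio went from 1.79, 1.70 and 1.78 in naive libraries to 4.18, 4.30 and 4.76 in syngeneic and 5.06, 4.89 and 5.75 in allogeneic libraries, and all 3 groups were apart (exact permutation p = 0.1 and adjusted p = 0.15 for each pair). Uhrf1 to Dnmt1 went from 0.0606, 0.0778 and 0.0677 to 0.414, 0.436 and 0.436 in syngeneic and 0.372, 0.308 and 0.343 in allogeneic libraries, with the allogeneic values below the syngeneic ones (log2 difference -0.33, exact permutation p = 0.1, adjusted p = 0.15).

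The 3 members with E2F letters differed in how they stood beside the replication genes. Relative to the summed counts of the 20 replication genes, Ezh2 stayed within a log2 difference of -0.06 (syngeneic) and 0.02 (allogeneic) of naive cells, with overlapping groups (exact permutation p = 0.6 for each, adjusted p = 0.635). Uhrf1 was higher than in naive cells by 1.83 and 1.68 on that scale. Dnmt1 was lower by this measure, with log2 differences of -0.81 and -0.63, although its CPM rose. Neither Uhrf1 nor Dnmt1 overlapped its naive values (exact permutation p = 0.1, adjusted p = 0.15).

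**Figure D4:**
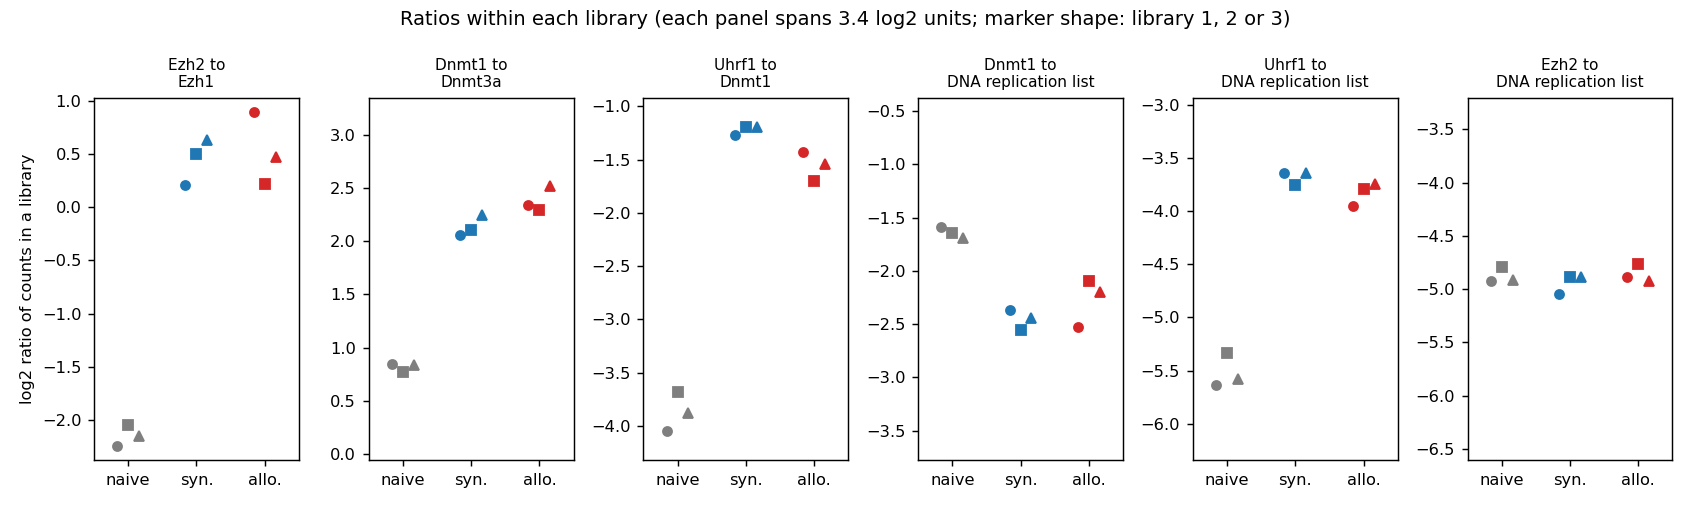
Log2 ratio of counts within each of the 9 libraries for 3 pairs of members and for 3 members over the summed replication genes (marker shapes are libraries 1 to 3; all panels have the same span). The Ezh2 ratio to replication genes overlaps between all groups, while Uhrf1 lies higher and Dnmt1 lower in transplant than in naive libraries.

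The members' patterns were compared with those of 9958 genes with a mean of at least 5 CPM, by Pearson r of log2(CPM + 1) over the 9 libraries. The points share 3 groups, so that high values are common, and r is given as a description. Uhrf1 was most like Pole, Mcm10 and Cdc45 (r = 0.999, 0.999 and 0.998), genes of the replication fork. Ezh2 was most like Nsl1, Sgo1 and Mybl2 (0.999 each), of which Nsl1 and Sgo1 act at kinetochores and centromeres and Mybl2 is a cell-cycle transcription factor. Dnmt1 was most like St3gal4, Gtf3c5 and Hnrnpa2b1 (0.996, 0.994 and 0.992). Tet1 was most like Plekha1, Il6ra and Cd2ap (0.998, 0.997 and 0.997), where Il6ra encodes a chain of the interleukin-6 receptor. Tet3 was most like Tom1l2, Plcxd2 and A730017L22Rik (0.996, 0.996 and 0.995), and Ezh1 most like Letm2, Gigyf1 and Itpkb (0.994, 0.993 and 0.993). For Dnmt3a these were Rapgef2, Crtc1 and Traf3 (0.987, 0.985 and 0.982), for Dnmt3b Gm42428, Gm42427 and Ankrd52 (0.990, 0.990 and 0.985), and for Eed Mrps36, Naa20 and Wdr5 (0.988, 0.987 and 0.982). Tet2 had the weakest best matches, with Zfc3h1, Ptar1 and Sft2d1 (0.964, 0.963 and 0.962). Among the members, Uhrf1 and Ezh2 correlated at 0.99 and Ezh1 and Ezh2 at -0.92.

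Other genes that act with these enzymes were followed from lists. For all genes tested, the shares called higher and lower were 22.4% and 19.5% in syngeneic against naive, 31.8% and 25.9% in allogeneic against naive, and 24.3% and 20.7% in allogeneic against syngeneic cells, with medians near 0. The counts below stand beside these shares as descriptions, and nothing particular to a list is read from them. Of 22 DNA methylation partners 20 were tested, of which 9 rose and 5 fell in syngeneic against naive cells (median log2 fold change 0.21), 9 rose and 4 fell in allogeneic against naive cells (0.27), and 7 rose and 5 fell in allogeneic against syngeneic cells (0.07). Hells, a chromatin remodeller needed for DNA methylation and named after its values were seen, moved like Uhrf1, from 8.11 ± 0.47 CPM in naive to 49.1 ± 4.11 in syngeneic and 46.8 ± 8.01 CPM in allogeneic cells. The highest allogeneic against syngeneic changes were those of Zbtb38, which binds methylated DNA (1.39 ± 0.07), Ahcy, which clears the by-product of methyl transfer (1.02 ± 0.14), and Gadd45b (0.91 ± 0.11). The lowest were those of Cxxc5, a relative of the DNA-binding part of Tet proteins (-2.58 ± 0.18), Gadd45a (-2.38 ± 0.24) and Zbtb4 (-0.69 ± 0.11). Cxxc5 stood in the same order of groups as Tet1, from 22.1 ± 2.03 CPM in naive to 9.58 ± 0.25 in syngeneic and 1.60 ± 0.38 CPM in allogeneic cells.

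Of the 9 other PRC2 subunits, all tested, 4 rose and 2 fell in syngeneic (median 0.19) and 5 rose and 2 fell in allogeneic cells against naive (0.30), and 2 rose and 1 fell in allogeneic against syngeneic cells (0.03). Suz12, the core subunit that holds the complex together, rose by 0.69 ± 0.09 and 0.71 ± 0.09 against naive cells, and Phf1, an accessory subunit, fell by 1.10 and 1.14 on the log2 scale. Both were named after their values were seen. Phf19, another accessory subunit, rose from 5.40 ± 0.32 CPM in naive to 34.9 ± 7.35 in syngeneic and 24.7 ± 0.12 CPM in allogeneic cells. Jarid2 (0.36 ± 0.08) and Aebp2 (0.33 ± 0.07), of another form of the complex, were higher in allogeneic than in syngeneic cells. Jarid2 was below its naive level in both, at 127 ± 4.78 CPM in naive, 83.4 ± 9.18 in syngeneic and 106 ± 9.84 CPM in allogeneic cells. Aebp2 was at 136 ± 7.05, 129 ± 2.28 and 161 ± 20.1 CPM in the same order. Phf19 was lower in allogeneic than in syngeneic cells (-0.48 ± 0.14), a call lost without allogeneic library 2 (edgeR adjusted p = 0.0517) or syngeneic library 3 (0.0771). The count of PRC2 partners higher in allogeneic than in naive cells was 3 without allogeneic library 3. The count of those lower was 1 without allogeneic library 1 or any 1 naive library, and with no filter on low counts. The count of those lower in allogeneic than in syngeneic cells was 2 without allogeneic library 1 and 0 without allogeneic library 2 or syngeneic library 3.

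PRC1, the complex that marks histone H2A and reads the PRC2 mark, was followed through 23 genes, all tested. Of these, 2 rose and 9 fell in syngeneic (median -0.28; 22.4% and 19.5% of all genes) and 4 rose and 12 fell in allogeneic cells (-0.34; 31.8% and 25.9% of all genes), while 7 rose and 7 fell in allogeneic against syngeneic cells (-0.04). The count of 2 was 1 without naive library 1 or 2 or syngeneic library 1 or 2, and with no filter on low counts. Cbx7, a reader of the PRC2 mark that was named after its values were seen, was lower than in naive cells in syngeneic (-0.66 ± 0.16) and allogeneic libraries (-0.95 ± 0.16). Between transplant groups, Pcgf2 (1.52 ± 0.17), Kdm2b (0.65 ± 0.07) and Pcgf1 (0.62 ± 0.15) were highest. Auts2 (-4.49 ± 0.22), Scmh1 (-1.71 ± 0.14) and Pcgf5 (-0.66 ± 0.11) were lowest. Auts2, a subunit of an activating form of PRC1, was at 6.49 ± 0.64 CPM in naive, 5.10 ± 0.48 in syngeneic and 0.220 ± 0.064 CPM in allogeneic cells.

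Of the genes that remove Polycomb marks 5 of 6 were tested. None was called in syngeneic against naive cells by edgeR, DESeq2 or limma-voom, and 1 had an unadjusted p under 0.05 by edgeR. In allogeneic cells 1 rose and 2 fell against naive (0 rose without allogeneic library 3 or naive library 1 or 3, with column totals, or with no filter on low counts), and 1 fell against syngeneic cells. That gene was Kdm6b, the inducible H3K27 demethylase, which was at 210.2 ± 6.74 CPM in naive, 179.8 ± 12.8 in syngeneic and 99.8 ± 21.8 CPM in allogeneic cells (-0.85 ± 0.12 against syngeneic, edgeR adjusted p = 0.000188). Kdm6a, its constitutive relative and named after its values were seen, had log2 differences of 0.20 ± 0.12, 0.10 ± 0.12 and -0.10 ± 0.12 in the 3 comparisons and was not called in any.

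**Figure D5:**
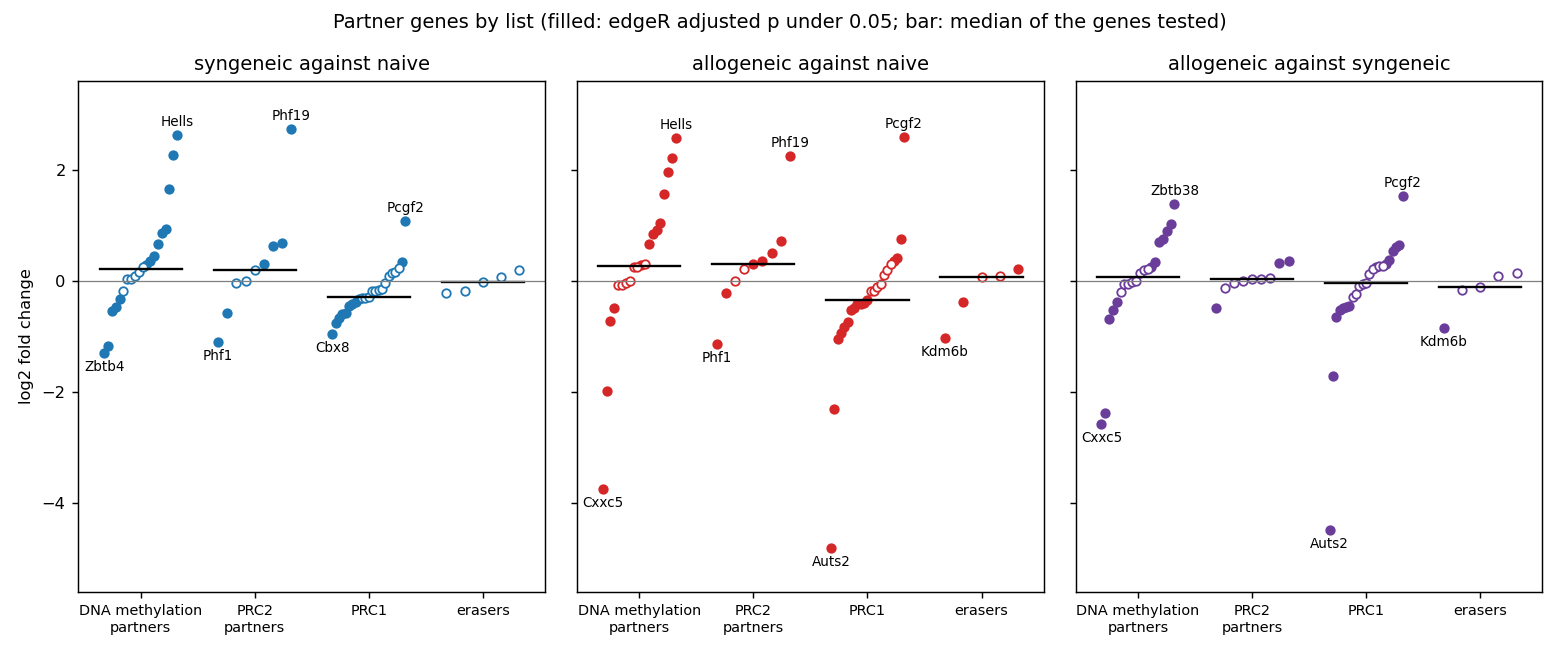
Log2 fold changes of the partner genes tested, by list (DNA methylation partners, other PRC2 subunits, PRC1 genes and erasers of Polycomb marks) and comparison (filled points passed edgeR's quasi-likelihood test at an adjusted p under 0.05, bars are medians). Auts2 at -4.49 and Cxxc5 at -2.58 are the lowest points of the allogeneic against syngeneic panel.

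Textbook targets of these enzymes were measured in the same libraries. At the Cdkn2 locus, a classical Polycomb target that encodes cell-cycle inhibitors, Cdkn2a was at 0.00723, 0.0353 and 0.0872 CPM in naive, 0.614, 0.835 and 0.895 CPM in syngeneic and 3.48, 3.32 and 2.98 CPM in allogeneic libraries. The groups rest on 15, 267 and 1307 counts and did not overlap. The allogeneic libraries were above the syngeneic ones by 2.09 ± 0.36 (edgeR adjusted p = 0.000796), and Cdkn2b by 2.12 ± 0.47 (edgeR adjusted p = 0.00364). Cdkn2b rested on 19, 75 and 374 counts over the naive, syngeneic and allogeneic libraries. Both genes were near 0 in naive libraries and passed the filter on low counts through the transplant groups, so no test against naive cells is given for them. Of the other listed Hox and Cdkn2 genes, Hoxb4 was higher in allogeneic than in syngeneic cells (0.82 ± 0.18). Hoxa7, Hoxa5 and Hoxa3 were at 0.690 ± 0.127, 0.191 ± 0.037 and 0.242 ± 0.026 CPM in syngeneic libraries. In allogeneic libraries they were at 0.0852 ± 0.0256, 0.0294 ± 0.0043 and 0.0654 ± 0.0249 CPM. These Hoxa genes passed the filter on low counts through the naive and syngeneic groups, so no test of allogeneic cells is given for them. In this list of 18 genes, 8 passed the filter on low counts, and 3 were called higher in allogeneic against syngeneic cells (24.3% of all genes).

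Germline genes that promoter methylation is known to keep silent stayed at very low levels. Of 12 listed, 8 were in the table, with a summed level of 0.577 to 2.80 CPM, and 2 had enough counts to be tested. Brdt, named after its values were seen, was the single call, lower than in naive cells in syngeneic (-2.00 ± 0.33) and allogeneic cells (-2.45 ± 0.34), and none was called higher. Of 18 imprinted genes, whose parental alleles differ in methylation, 13 were tested. In syngeneic against naive cells 1 rose and 1 fell, in allogeneic against naive cells 2 rose and 6 fell, and in allogeneic against syngeneic cells 2 rose and 4 fell. Igf2r, a receptor for mannose 6-phosphate and IGF2, rose most in allogeneic against syngeneic cells (1.11 ± 0.12). It overlaps its antisense RNA Airn, whose reads cannot be separated from it with the strand setting unknown. Impact was the other that rose (0.36 ± 0.11), and Snrpn (-2.28 ± 0.55), Grb10 (-2.18 ± 0.65) and Kcnq1ot1 (-1.11 ± 0.28) fell most. The calls of Impact and Grb10 were each lost without allogeneic library 2 or 3 or syngeneic library 2 or 3, with edgeR adjusted p up to 0.0927 and 0.0681. The call of Impact was also lost with column totals (edgeR adjusted p = 0.0602) and with 2 groups in the fit (0.0573). Of the calls in allogeneic against naive cells, those of Impact, Snrpn and Kcnq1ot1 were each lost without allogeneic library 2 or 3. That of Kcnq1ot1 was also lost without naive library 2 (edgeR adjusted p = 0.154). By limma-voom 6 imprinted genes were called in allogeneic against naive and 5 in allogeneic against syngeneic cells.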

How the data were processed

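RNA-seq counts of 9 libraries were analysed, grouped by the transplant type in their labels. The deposited values are raw gene counts, in a single table. Tools and build per the submitters' processing notes are GRCm38, HTSeq 0.6.1, Bowtie2 2.2.1, TopHat2 2.0.13 and FastQC 0.11.3, named with no role or order. Per the labels' protocols, stranded libraries were made from 100 ng of total RNA after ribosomal RNA depletion. Not given in the sources used here are the strand setting, the annotation release and the treatment of reads with several alignments. Overlapping and near-identical genes may therefore share reads, and length-scaled levels depend on the annotation chosen.

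Symbols, coordinates and exon lengths came from GENCODE M21 (GRCm38), which matched 29014 of 29229 identifiers. CPM used column totals. Tests used edgeR 4.0.16 in R 4.3.3 (filterByExpr by group, TMM, glmQLFit and glmQLFTest) in a single fit to the 9 libraries, with group as its factor and no covariate, and Benjamini-Hochberg adjustment over the 19609 genes kept, among them all 10 members. The SE of a log2 fold change is its size over the square root of F. Ratios were tested by exact 2-sided permutation over libraries with scipy 1.17.1. Replicates differed by more than sampling noise (chi-square per degree of freedom of 22.5 to 362). P-values measure the spread between pools in transplant groups, and between libraries of naive mice whose pooling the labels leave unstated. Intervals of counting error were not needed at 330 or more counts per member and library.

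Partner genes named in the text were, in each list, up to 3 per direction with the largest change among those called in allogeneic against syngeneic cells, and others are marked as named after their values were seen. The 3 most similar genes per member were taken by Pearson r. The members, gene lists, motifs and tests were chosen with earlier results of these data known. Alternatives were DESeq2 1.42.0, limma-voom (limma 3.58.1), column totals, the ribosomal locus left out, no filter, fits of 2 groups, a replicate term and leaving out each library. On simulated counts of 19609 genes for allogeneic against syngeneic cells, the test recovered 38% of 100 genes changed 1.5-fold and 98% of 100 changed 2-fold. The simulation gave every gene the same spread, below the common coefficient of variation of 0.193 estimated from the real libraries. Genes with very low counts were not among those changed. These shares therefore do not give the power of the test on the real libraries.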

Additional observations from a re-analysis of the deposited data

Results flagged for a closer look

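For 2 partner genes the syngeneic and allogeneic groups moved in opposite directions from naive cells, and the difference itself passed edgeR's quasi-likelihood test. Zbtb38, a reader of methylated DNA, was at 72.3 ± 1.72 CPM in naive, 48.2 ± 1.82 in syngeneic and 125 ± 12.4 CPM in allogeneic cells (log2 difference between the transplant groups 1.39, edgeR adjusted p = 8.37e-08). Gadd45a, a DNA damage response gene linked to demethylation, was at 5.69 ± 0.50 CPM in naive, 17.8 ± 6.45 in syngeneic and 3.31 ± 0.32 CPM in allogeneic cells (-2.38, edgeR adjusted p = 1.5e-05). Its fall against naive cells was lost without allogeneic library 2 (edgeR adjusted p = 0.064) or 3 (0.0503) or naive library 1 (0.0659), and with limma-voom in place of edgeR (limma adjusted p = 0.0589). In syngeneic libraries 1 to 3 Gadd45a was at 10.3, 21.8 and 21.1 CPM beside an erythroid sum of 2289, 5973 and 5096 CPM. The neutrophil sum was 421, 1313 and 1421 CPM there, and the macrophage and monocyte sum 117, 318 and 311 CPM. The part of any of these cells in the level of Gadd45a was not tested.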

How the results depend on the processing

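The counts of members called in both comparisons with naive cells were the same (8 and 9) under the 7 alternatives that keep all libraries. Leaving out a library gave 7 to 8 in syngeneic and 9 to 10 in allogeneic cells. In allogeneic against syngeneic cells the count higher was 0 with column totals, with the ribosomal locus left out and with 2 groups in the fit, and 0 to 1 without a library, since Tet2 was the gene concerned. The 2 called lower remained 2 throughout. Of 480 single results of the members under alternatives, 463 kept their direction and call, 11 lost it, 2 gained it and 4 turned in sign. Those turns were of results not called: Tet2 in syngeneic against naive cells (-0.13 to 0.0089 without a library), and Ezh1 (-0.13 to 0.0599) and Ezh2 (-0.0588 to 0.12) in allogeneic against syngeneic cells. Small differences of ratios turned too, in Ezh2 to Ezh1 between transplant groups (-0.10 to 0.238) and in Ezh2 to the replication genes in allogeneic against naive cells (-0.0264 to 0.0636). The cause was not tested. The replicate block gave 8, 9 and 3 members called in the 3 comparisons, and changed no member's call. Same-numbered libraries deviated together at r of -0.18 to 0.39, and 3 of 9 libraries correlated best with their own number. No clear pairing by number was seen, and with 3 libraries per group this check cannot exclude it. The block cost Grb10 its call (edgeR adjusted p = 0.0532) and gave 1 eraser called lower in syngeneic against naive cells. Of 1520 results of named partner genes under alternatives, 52 lost their call and none turned. Without a library, 3 to 5 PRC2 partners were called higher and 1 to 2 lower in allogeneic against naive cells. Depth limits the Cdkn2 and Hox genes and Snrpn, which rest on few counts in naive or allogeneic libraries.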

Other observations

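In the naive and the syngeneic group, Tet2 followed the library order of Kcnq1ot1, a long nuclear noncoding RNA of an imprinted locus. The pattern was chosen after the values were seen, rests on 3 libraries per group and was not tested. Tet2 was at 99.0, 115 and 89.9 CPM in naive libraries 1 to 3, where Kcnq1ot1 was at 149.9, 257 and 96.4 CPM. In syngeneic libraries Tet2 was at 83.0, 104 and 96.2 CPM and Kcnq1ot1 at 142, 254 and 215 CPM. In allogeneic libraries Tet2 was at 89.3, 130.2 and 130.3 CPM and Kcnq1ot1 at 77.6, 100.2 and 100.5 CPM. Both were lowest in library 1, and libraries 2 and 3 were too close to order. The group means did not go together: in allogeneic libraries that of Tet2 was highest (116.6 ± 23.7 CPM) and that of Kcnq1ot1 lowest (92.7 ± 13.1 CPM). Hoxa9, a Polycomb target of progenitor cells, had no count in naive libraries and 80 and 55 counts over the syngeneic and allogeneic libraries, at least 28.2-fold and 16.9-fold higher than 3 counts over the naive group. Hoxa9 passed the filter on low counts only through the transplant groups, so no test against naive cells is given.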
